A study of Mus musculus with 55 samples.

Results

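The genes described here are 35 genes that mark macrophages in the mouse liver, out of 24475 gene symbols in the count table. They were taken as a fixed list of names, written with earlier results of these data known. All 35 were present and passed the filter on low counts. The list holds 6 markers of resident Kupffer cells (Clec4f, Vsig4, Timd4, Cd5l, Marco and Folr2) and 6 markers of recruited or lipid-associated macrophages (Ccr2, Ly6c2, Itgax, Trem2, Gpnmb and Cd9). It also holds 3 complement C1q chains, 4 Fc receptor and adaptor genes, 2 adhesion and chemokine receptor genes, and 14 general macrophage or leukocyte genes.

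Kupffer cells are the macrophages that live in the sinusoids of the liver, where they take up bacteria, lipoproteins, aged red cells and cell debris from portal blood. When the liver is injured or loaded with lipid, monocytes that carry Ccr2 enter from blood and can become macrophages with a Trem2 and Gpnmb program. Both kinds share a core of phagocytic genes, such as the lysosomal protein Cd68, the complement chains of C1q and the receptor for colony-stimulating factor, Csf1r.

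Liver RNA came from 55 male mice of 2 strains, each given 1 of 3 adeno-associated virus (AAV) vectors. The OTC strain (B6EiC3Sn a/A-Otcspf-ash/J) carries the spf-ash allele of the X-linked urea cycle gene Otc, and the WT strain was the hybrid B6EiC3SnF1/J. The vectors encoded a short hairpin RNA against Gls2, which makes the liver enzyme that releases ammonia from glutamine (sh-Gls2), one against Glud1, which makes glutamate dehydrogenase (sh-Glud1), or a scrambled hairpin (control). Mice of all 6 groups were injected by vein at 4 months of age (week 0), all ate a 40% protein diet from week 2, and livers were collected at week 5. Groups were OTC sh-Gls2 (10 mice), OTC sh-Glud1 (8), OTC control (8), WT sh-Gls2 (10), WT sh-Glud1 (9) and WT control (10). No group was left uninjected or on chow, so effects of AAV and of the diet cannot be told apart from the baseline. The strains are separate stocks, so the Otc allele and other background differences cannot be told apart.

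Total counts per library lay between 14489866 and 22781052. Levels are in CPM, the read counts scaled to a common library total with TMM factors. Otc was 43.02 to 79.1 CPM in OTC control livers, against 473 to 596 CPM in WT control livers. Gls2 fell under sh-Gls2 by 1.15 ± 0.10 on the log2 scale in OTC and by 1.11 ± 0.10 in WT, and Glud1 fell under sh-Glud1 by 1.27 ± 0.13 in OTC and by 1.42 ± 0.12 in WT (edgeR adjusted p = 6.85e-13, 3.51e-13, 3.70e-09 and 3.96e-12). Each targeted gene was lower in all livers given its hairpin than in all control livers of the same strain. In earlier results over all genes, 3 control livers stood apart from their groups (mouse 13 in WT, and mice 3 and 67 in OTC). Results that rest on them are given with and without them. The defining hepatocyte markers Alb, Apoa1, Ttr, Serpina1c, Tat and Cps1 summed to between 73484 and 129970 CPM per liver.

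The defining macrophage markers were all detected. Per length, in the TPM values deposited by the authors, Clec4f was the most abundant of the 35 genes in WT control livers, with a median of 30.2 TPM (range 19.8 to 38.5). Cd5l followed with 26.4 TPM, Lyz2 with 24.4 TPM and the C1q chains with 20.8 to 21.98 TPM, and the ranges of these genes overlapped. Cd68 had 6.12 TPM. At the low end stood Ccr2 with 0.55 TPM, Trem2 with 0.175 TPM, Itgax with 0.155 TPM and Gpnmb with 0.065 TPM. In all, 11 of the 35 genes had a median of at least 10 TPM in WT control livers and 9 had a median under 1 TPM, among them 5 of the 6 recruited or lipid-associated markers. Counts of those 5 genes were small in single livers, down to 0 for Ly6c2, Trem2 and Gpnmb, and their folds are less precise.

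Promoter sequence is shown for 5 of the genes because they hold a match to TGANTCA, the motif of AP-1 factors, close to the start. These are Cd68, Cybb, Itgax and Trem2, whose levels in sh-Gls2 livers are given next, and the resident marker Folr2. The windows are the 150 bases before the RefSeq transcription start on GRCm38.p6, written 5′ to 3′ on the strand of the gene, and they lie at chr11:69666171-69666320 on the minus strand for Cd68, chrX:9469325-9469474 on the minus strand for Cybb, chr7:101845332-101845481 on the minus strand for Folr2, chr7:128129400-128129549 on the plus strand for Itgax and chr17:48346251-48346400 on the plus strand for Trem2. Capitals mark TGANTCA and, in Cybb, also the ISRE, the motif of interferon regulatory factors, on either strand.
Cd68: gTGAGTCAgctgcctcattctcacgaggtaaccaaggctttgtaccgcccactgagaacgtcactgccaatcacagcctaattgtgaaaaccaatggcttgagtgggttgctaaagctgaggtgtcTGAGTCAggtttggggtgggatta
Cybb: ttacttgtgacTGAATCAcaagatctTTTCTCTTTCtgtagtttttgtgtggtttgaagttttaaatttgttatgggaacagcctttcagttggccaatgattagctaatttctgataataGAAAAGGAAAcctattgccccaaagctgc
Folr2: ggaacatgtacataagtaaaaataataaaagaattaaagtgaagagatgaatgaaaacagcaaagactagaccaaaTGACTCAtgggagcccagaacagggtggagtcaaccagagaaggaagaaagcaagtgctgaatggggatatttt
Itgax: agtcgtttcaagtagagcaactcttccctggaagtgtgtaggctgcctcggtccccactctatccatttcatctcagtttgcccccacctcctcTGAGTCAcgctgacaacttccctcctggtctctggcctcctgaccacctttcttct
Trem2: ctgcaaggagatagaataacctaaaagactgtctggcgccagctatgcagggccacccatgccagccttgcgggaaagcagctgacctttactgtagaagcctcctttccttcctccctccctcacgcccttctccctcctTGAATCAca
The motif TGANTCA was found on either strand in the windows, from 250 bases before to 50 bases after the start, of 6 of the 30 listed genes with a RefSeq window (20%): Cd68, which holds 2 matches, Cybb, Folr2, Gpnmb, Itgax and Trem2. Of 27025 mouse genes with such a window, 8.97% held it. GAGGAAGT, the motif of the macrophage factor PU.1, was found in 3 of the 30 genes (10%; C1qc, Ctss and Ly6c2), against 3.69% of all genes. The ISRE was found in 3 (10%; Aif1, Ctss and Cybb), against 3.99% of all genes, and CACGTG, the E-box of TFEB and MITF, was found in 0, against 8.09% of all genes. In Ctss and Cybb, which held more than 1 of these motifs, matches to different motifs shared no base. A match describes the letters of a window and is not a measured binding site, and the motifs were picked with the expression results known.

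With the Gls2 hairpin, most of the macrophage genes rose in both strains. In OTC livers 28 of the 35 genes rose and 0 fell, with a background of 20.2% of all 13311 tested genes higher and 22.6% lower. In WT livers 28 of 35 rose and 0 fell, against 17.6% higher and 17.2% lower in the background (edgeR quasi-likelihood test, Benjamini-Hochberg adjusted p below 0.05). The median log2 fold change of the 35 genes was 0.73 in OTC and 0.71 in WT, where the medians over all tested genes were -0.02 and -0.01. In these bulk samples, more macrophages in the tissue and more RNA of these genes per cell cannot be told apart. There were 26 genes that rose in both strains, Ly6c2 and Timd4 passed the test in OTC alone, Cx3cr1 and Gpnmb in WT alone, and Marco, Folr2, Cd9, Itgam and Cd163 in neither. Without OTC control mice 3 and 67, 26 of 35 rose in OTC, with 5154 of all 13396 tested genes called in either direction. The median log2 fold change of the 35 genes in OTC was then 0.58.

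**Figure D1:**
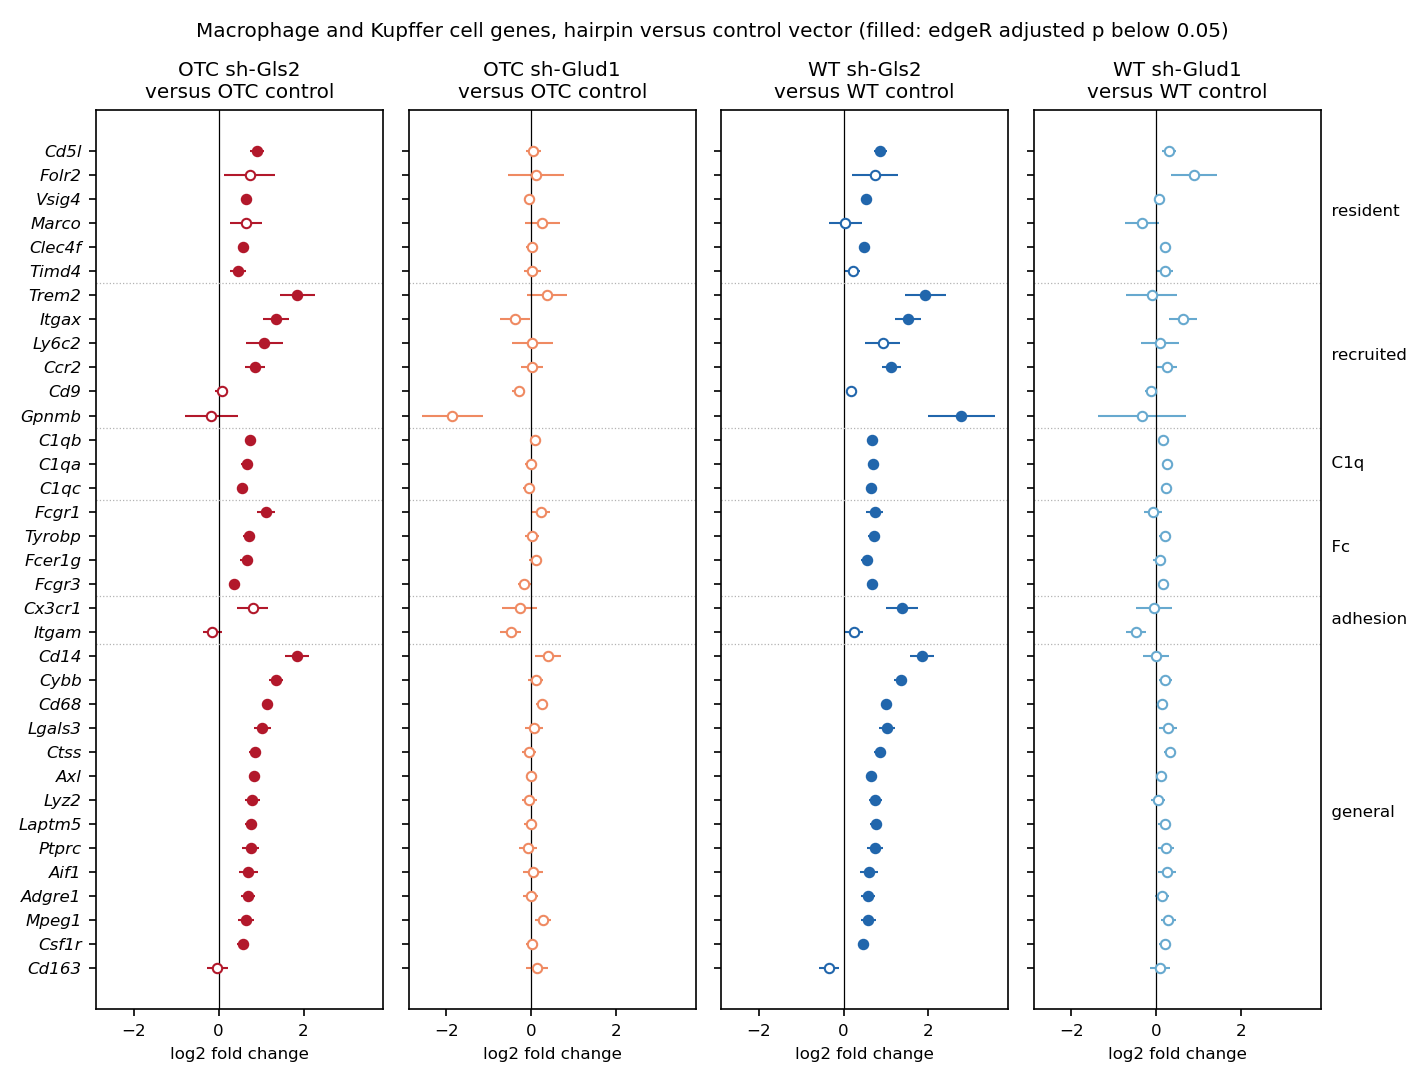
Log2 fold change with its standard error for each of the 35 genes (y axis, grouped by role) in each hairpin group against the control vector of the same strain. Filled points passed edgeR adjusted p 0.05: 28 genes in each sh-Gls2 comparison, all to the right of 0, and none in either sh-Glud1 comparison.

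The resident Kupffer cell markers with abundant transcripts rose by less than 1 on the log2 scale. Clec4f, a C-type lectin that in mice is specific to Kupffer cells, lay between 47.6 and 71.2 CPM (median 61.1) in OTC sh-Gls2 livers, against between 22.9 and 53.9 CPM (median 38.9) in OTC control livers. Its WT values lay between 39.6 and 64.1 CPM (median 54.6) with sh-Gls2, against between 30.9 and 47.1 CPM (median 37.7) with the control vector. Every sh-Gls2 liver stood above the control median of its strain, but the ranges overlapped in both strains. The log2 fold change was 0.59 ± 0.13 in OTC (edgeR adjusted p = 0.000196) and 0.47 ± 0.12 in WT (edgeR adjusted p = 0.00147), each with its standard error (SE).

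Cd5l, a secreted scavenger protein that macrophages make under control of liver X receptors, rose the most of the resident markers that passed the test. It lay between 50.04 and 93.4 CPM (median 76.4) in OTC sh-Gls2 livers, against between 17.995 and 61.01 CPM (median 40.5) in OTC control livers. In WT the values were between 44.01 and 83.5 CPM (median 66.3) with sh-Gls2, against between 30.3 and 42.5 CPM (median 33.5) with the control vector, and here all sh-Gls2 livers stood above all control livers. The log2 fold change was 0.91 ± 0.17 in OTC (edgeR adjusted p = 2.21e-05) and 0.87 ± 0.16 in WT (edgeR adjusted p = 1.99e-05). Vsig4, a receptor for complement C3 fragments on resident macrophages, lay between 16.6 and 29.1 CPM (median 21.9) in OTC sh-Gls2 livers, against between 10.7 and 18.7 CPM (median 13.99) in OTC control livers. Across WT livers it lay between 13.4 and 21.4 CPM (median 17.5) with sh-Gls2, against between 8.33 and 15.5 CPM (median 11.9) with the control vector. Its ranges overlapped in both strains, and it rose by 0.66 ± 0.12 in OTC (edgeR adjusted p = 1.53e-05) and 0.54 ± 0.11 in WT (edgeR adjusted p = 0.000165) on the log2 scale.

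The other resident markers gave smaller or less certain differences. Timd4, a phosphatidylserine receptor of long-lived resident macrophages, lay between 3.49 and 7.43 CPM (median 5.25) in OTC sh-Gls2 livers, against between 2.38 and 6.19 CPM (median 3.77) in OTC control livers, and between 2.52 and 6.31 CPM (median 4.56) in WT sh-Gls2 livers, against between 3.03 and 6.14 CPM (median 3.49) in WT control livers. The ranges overlapped in both strains. Its log2 fold change was 0.46 ± 0.19 in OTC (edgeR adjusted p = 0.0449) and 0.21 ± 0.18 in WT (edgeR adjusted p = 0.374). The OTC call was lost without OTC control mice 3 and 67 (log2 fold change 0.32, edgeR adjusted p = 0.204), and also when any 1 of 9 single libraries was left out.

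Marco, a class A scavenger receptor for bacteria and particles, lay between 4.83 and 12.6 CPM (median 6.65) in OTC sh-Gls2 livers, against between 1.76 and 11.1 CPM (median 3.45) in OTC control livers. In WT it lay between 1.36 and 5.9004 CPM (median 3.17) with sh-Gls2, against between 1.16 and 13.1 CPM (median 1.87) with the control vector, where mouse 7 alone gave the highest value. Folr2, the folate receptor beta of tissue macrophages, lay between 0.197 and 4.31 CPM (median 1.72) in OTC sh-Gls2 livers, against between 0.179 and 4.62 CPM (median 0.479) in OTC control livers, and between 0.235 and 6.74 CPM (median 3.22) in WT sh-Gls2 livers, against between 0.358 and 3.07 CPM (median 1.84) in WT control livers. The ranges of both genes overlapped in both strains. Marco gave log2 fold changes of 0.65 ± 0.39 in OTC and 0.04 ± 0.39 in WT, and Folr2 0.73 ± 0.60 in OTC and 0.75 ± 0.54 in WT, with edgeR adjusted p = 0.178, 0.943, 0.339 and 0.291. The 95% intervals of Folr2 ran from -0.45 to 1.91 in OTC and from -0.31 to 1.81 in WT, so that both no difference and a difference of more than 1 lay within them. Without OTC control mouse 35, the highest of its group, Folr2 in OTC was at 1.55 (edgeR adjusted p = 0.0486).

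**Figure D2:**
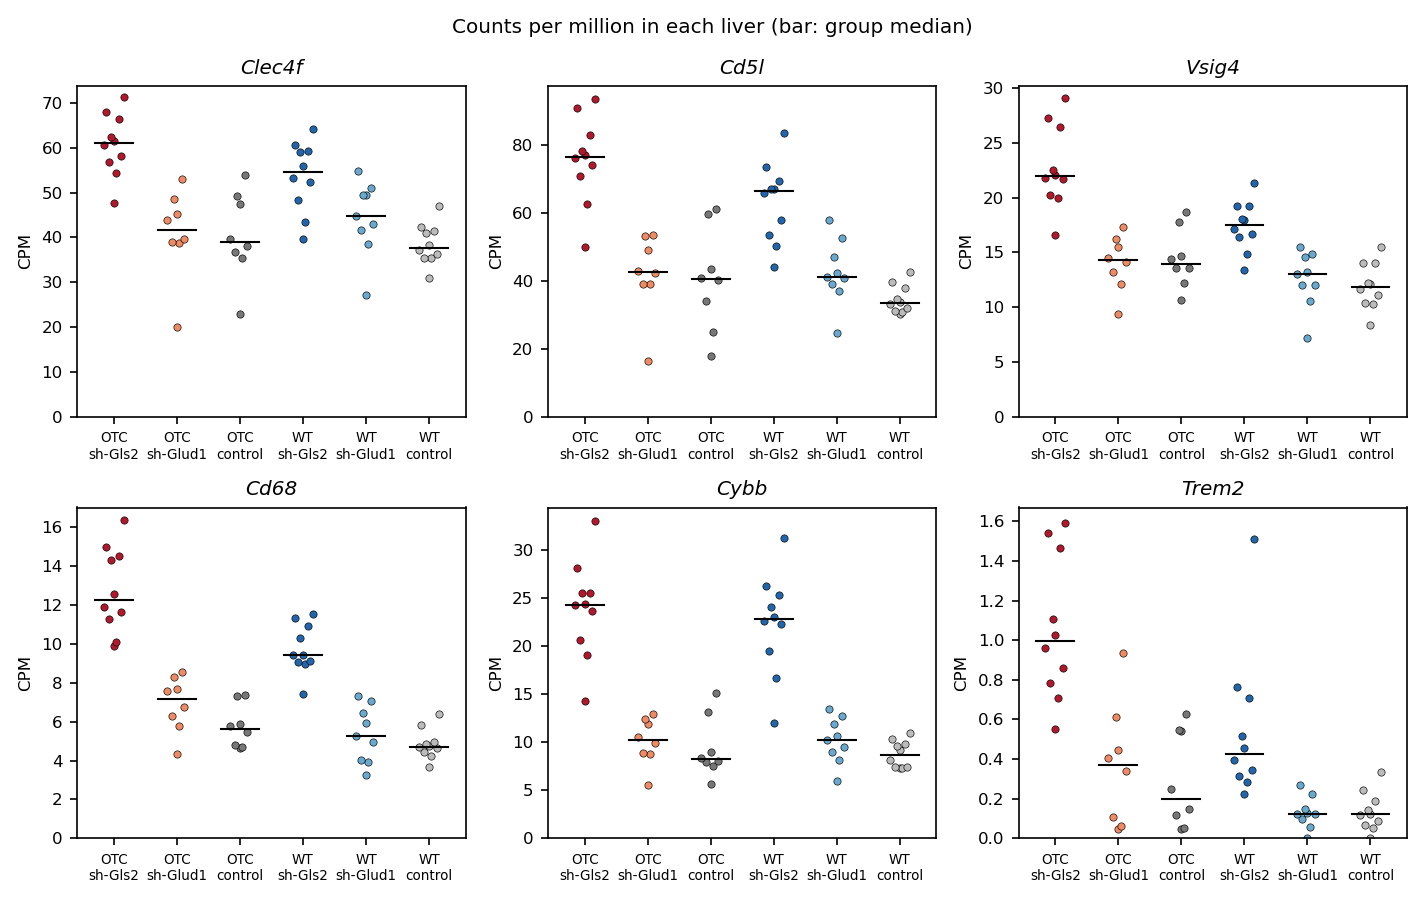
CPM (y axis, from 0) in each liver for resident markers (Clec4f, Cd5l, Vsig4), general macrophage genes (Cd68, Cybb) and Trem2, with 1 point per mouse and a bar at the median of each of the 6 groups. In both strains the sh-Gls2 median is the highest of the 3 vectors for every gene shown, while the sh-Glud1 points overlap the control points.

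Of the recruited or lipid-associated markers, 4 of 6 rose in each strain: Trem2, Itgax, Ccr2 and Ly6c2 in OTC, and Trem2, Itgax, Ccr2 and Gpnmb in WT. Trem2, a lipid-sensing receptor that signals through Tyrobp, lay between 0.552 and 1.59 CPM (median 0.995) in OTC sh-Gls2 livers, against between 0.0449 and 0.627 CPM (median 0.199) in OTC control livers. The WT livers lay between 0.221 and 1.51 CPM (median 0.426) with sh-Gls2, against between 0 and 0.336 CPM (median 0.122) with the control vector. Ranges overlapped in both strains, by a few livers only. The log2 fold change was 1.85 ± 0.41 in OTC (edgeR adjusted p = 0.000183) and 1.93 ± 0.48 in WT (edgeR adjusted p = 0.000623).

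Itgax encodes CD11c, an integrin chain of dendritic cells and of some macrophages. It lay between 1.13 and 2.39 CPM (median 1.82) in OTC sh-Gls2 livers, against between 0.206 and 1.35 CPM (median 0.526) in OTC control livers, with overlap. In WT livers the values lay between 0.706 and 2.35 CPM (median 1.31) with sh-Gls2, against between 0.283 and 0.689 CPM (median 0.406) with the control vector, and every sh-Gls2 liver was above every control liver. It rose by 1.36 ± 0.31 in OTC and 1.51 ± 0.31 in WT on the log2 scale (edgeR adjusted p = 0.000285 and 8.65e-05). Ccr2, the receptor for the chemokine Ccl2 on monocytes, lay between 1.81 and 3.37 CPM (median 2.59) in OTC sh-Gls2 livers, against between 0.594 and 3.01 CPM (median 1.26) in OTC control livers. In WT the values were between 1.46 and 5.17 CPM (median 2.53) with sh-Gls2, against between 0.779 and 1.66 CPM (median 1.28) with the control vector. Ccr2 rose by 0.85 ± 0.23 in OTC and 1.12 ± 0.22 in WT on the log2 scale, with overlapping ranges (edgeR adjusted p = 0.00276 and 7.22e-05).

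Ly6c2, a surface protein of classical monocytes, was near the limit of detection. It lay between 0.328 and 1.34 CPM (median 0.778) in OTC sh-Gls2 livers, against between 0.0983 and 0.546 CPM (median 0.3696) in OTC control livers, and between 0.142 and 1.101 CPM (median 0.721) in WT sh-Gls2 livers, against between 0 and 0.716 CPM (median 0.322) in WT control livers. All ranges overlapped. The log2 fold change was 1.08 ± 0.43 in OTC (edgeR adjusted p = 0.0351) and 0.92 ± 0.41 in WT (edgeR adjusted p = 0.068). The OTC call was lost when any 1 of 6 single libraries was left out, and the WT value passed the test when any 1 of 3 was left out. Cd9, a tetraspanin that many other cell types also carry, lay between 15.2 and 30.2 CPM (median 21.2) in OTC sh-Gls2 livers, against between 14.2 and 39.3 CPM (median 18.5) in OTC control livers, and between 10.8 and 16.5 CPM (median 12.9) in WT sh-Gls2 livers, against between 8.08 and 15.9 CPM (median 12.01) in WT control livers. Its log2 fold change was 0.07 ± 0.14 in OTC and 0.19 ± 0.14 in WT, with overlapping ranges (edgeR adjusted p = 0.731 and 0.306). OTC control mouse 3 alone gave the highest Cd9 value of its group, and the next liver had 20.5 CPM. Cd9 did not pass in OTC without mouse 3 either.

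Gpnmb, a transmembrane glycoprotein of lipid-laden macrophages, rested on few livers in both strains. In OTC it lay between 1.02 and 4.27 CPM (median 1.91) with sh-Gls2, against between 0.135 and 16.2 CPM (median 0.521) with the control vector, where mouse 38 had 16.2 CPM and the next mouse 1.82 CPM. The log2 fold change was -0.17 ± 0.62 (edgeR adjusted p = 0.85), and without mouse 38 it was 1.75 (edgeR adjusted p = 0.0162), so the direction turned. In WT it lay between 0.246 and 8.25 CPM (median 0.523) with sh-Gls2, against between 0.0963 and 0.785 CPM (median 0.165) with the control vector. Here sh-Gls2 mice 30 and 36 had 8.25 and 5.99 CPM, and the other 8 had at most 0.782 CPM. The log2 fold change in WT was 2.78 ± 0.80 (edgeR adjusted p = 0.00296).

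**Figure D3:**
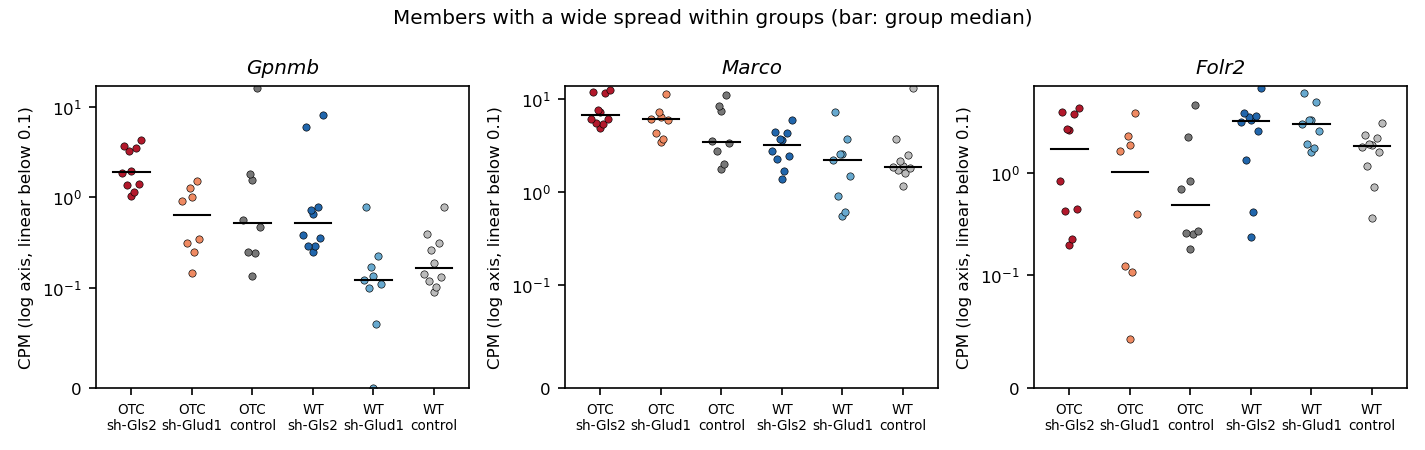
CPM in each liver (y axis, log scale that is linear below 0.1) for Gpnmb, Marco and Folr2, with 1 point per mouse and a bar at the median of each group. Single livers stand far above the rest of their group, such as OTC control mouse 38 at 16.2 CPM for Gpnmb and WT control mouse 7 at 13.1 CPM for Marco, and Folr2 spans from 0.179 to 4.62 CPM within OTC control.

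Side by side, the median log2 fold change under sh-Gls2 was 0.96 for the recruited or lipid-associated markers and 0.65 for the resident markers in OTC, and 1.31 and 0.51 in WT. Without OTC control mice 3 and 67 the OTC medians were 0.91 for the recruited and 0.45 for the resident markers. The order of the set medians depended on the values used. On log2(TPM + 1) without a filter on low values, with all 6 markers of each set, the recruited median was 0.45 and the resident median 0.69 in OTC, and both were close to 0.47 in WT (0.476 and 0.471). With the filter, which left 2 recruited markers, the recruited median was the lower one in both strains on log2(TPM + 1), and on log2(TPM + 0.1) it was lower in OTC and higher in WT. In every run on counts the recruited median was the higher one in both strains. Adding 1 to TPM pulls folds of low genes toward 0, and most recruited markers had a median under 1 TPM in WT control livers. The 2 recruited markers left by the filter were Cd9 and Ly6c2. The filtered medians therefore describe those 2 genes and not the set of 6. The TPM values therefore cannot decide the order, and which set moved further under sh-Gls2 was not tested. The 6 resident markers summed to between 129 and 211 CPM (median 171) in OTC sh-Gls2 livers, between 51.6 and 135 CPM (median 109) in OTC sh-Glud1 livers and between 57.8 and 147 CPM (median 104) in OTC control livers. In WT they summed to between 102 and 169 CPM (median 150.5) with sh-Gls2, between 63.9 and 146 CPM (median 111) with sh-Glud1 and between 76.99 and 118 CPM (median 91.8) with the control vector. These sums are mostly Clec4f and Cd5l, and the sh-Gls2 median was the highest in each strain. The recruited or lipid-associated markers summed to between 22.7 and 38.95 CPM (median 28.1) in OTC sh-Gls2 livers, between 15.5 and 25.4 CPM (median 19.4) in OTC sh-Glud1 livers and between 17.01 and 42.7 CPM (median 21.6) in OTC control livers. In WT they summed to between 15.1 and 28.5 CPM (median 18.9) with sh-Gls2, between 10.6 and 15.7 CPM (median 14.1) with sh-Glud1 and between 9.97 and 19.6 CPM (median 14.1) with the control vector. Most of this sum is Cd9, and the ranges of the 3 vectors overlapped within each strain. To weight genes equally, the mean log2 CPM of the recruited markers minus that of the resident markers was taken in each liver. Its median was -2.39 in OTC sh-Gls2, -2.88 in OTC sh-Glud1, -2.98 in OTC control, -2.97 in WT sh-Gls2, -3.62 in WT sh-Glud1 and -3.26 in WT control. The ranges of the 3 vectors overlapped within each strain, and this balance is given as a description without a test.

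**Figure D4:**
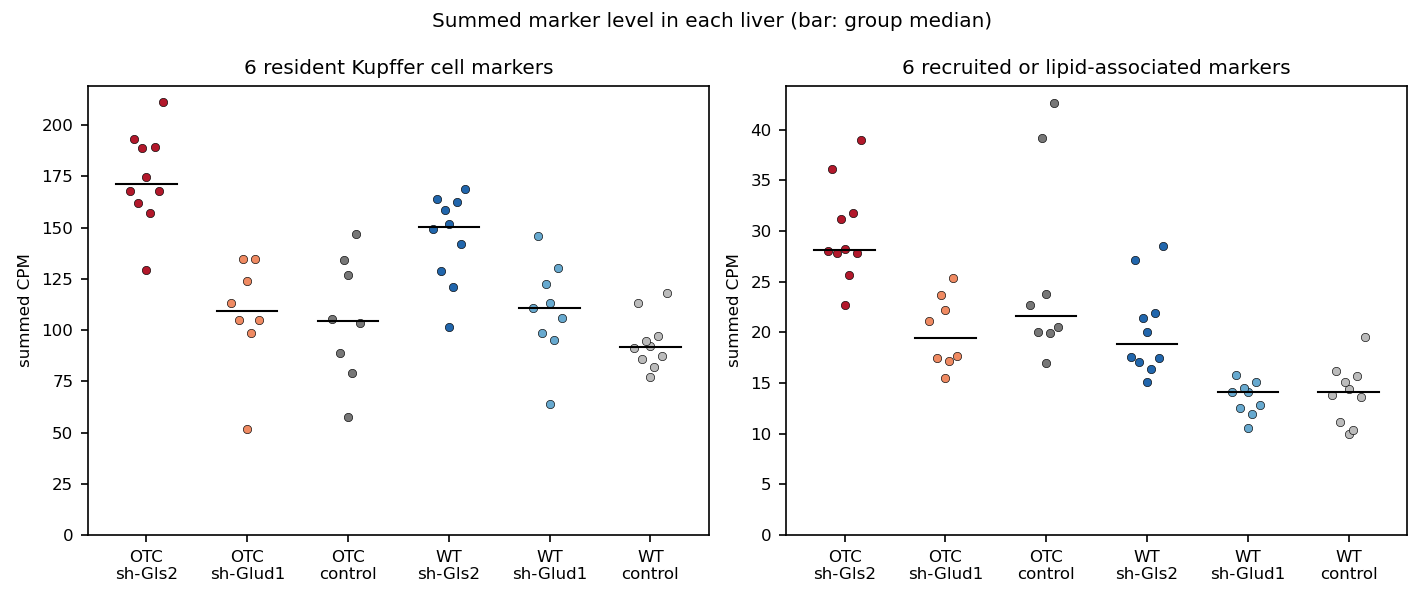
Summed CPM (y axis, from 0) of the 6 resident and of the 6 recruited or lipid-associated markers in each liver, with 1 point per mouse and a bar at the group median. The sh-Gls2 medians are the highest within each strain on both sides, at 171 and 150.5 CPM for the resident markers and 28.1 and 18.9 CPM for the recruited markers in OTC and WT.

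Of the 14 general macrophage and leukocyte genes, 13 rose in each strain. Cd68, the lysosomal glycoprotein used to stain macrophages, lay between 9.92 and 16.4 CPM (median 12.3) in OTC sh-Gls2 livers, against between 4.64 and 7.36 CPM (median 5.62) in OTC control livers, and between 7.44 and 11.5 CPM (median 9.45) in WT sh-Gls2 livers, against between 3.67 and 6.39 CPM (median 4.72) in WT control livers. In both strains every sh-Gls2 liver was above every control liver. It rose by 1.15 ± 0.13 in OTC and 1.01 ± 0.12 in WT on the log2 scale (edgeR adjusted p = 5.12e-10 and 3.67e-09). Cybb, the catalytic chain of the phagocyte NADPH oxidase, lay between 14.4 and 33.1 CPM (median 24.4) in OTC sh-Gls2 livers, against between 5.62 and 15.1 CPM (median 8.25) in OTC control livers. Across WT livers it lay between 12.05 and 31.3 CPM (median 22.8) with sh-Gls2, against between 7.31 and 11.02 CPM (median 8.71) with the control vector, without overlap. It rose by 1.35 ± 0.16 in OTC and 1.35 ± 0.15 in WT on the log2 scale (edgeR adjusted p = 4.46e-09 and 8.03e-10).

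Cd14, the coreceptor for lipopolysaccharide, gave the largest log2 fold change of the general genes. It lay between 2.99 and 8.08 CPM (median 5.52) in OTC sh-Gls2 livers, against between 0.515 and 2.38 CPM (median 1.83) in OTC control livers, without overlap. Among WT mice it lay between 1.77 and 9.42 CPM (median 3.83) with sh-Gls2, against between 0.566 and 3.26 CPM (median 0.954) with the control vector, with overlap. It rose by 1.85 ± 0.28 in OTC and 1.85 ± 0.27 in WT on the log2 scale (edgeR adjusted p = 7.46e-07 and 3.64e-07). Axl, a receptor kinase that helps macrophages to clear dying cells and that other liver cells also express, lay between 20.2 and 33.7 CPM (median 24.9) in OTC sh-Gls2 livers, against between 8.59 and 20.3 CPM (median 14.1) in OTC control livers. In WT it lay between 13.1 and 24.2 CPM (median 19.4) with sh-Gls2, against between 9.44 and 20.3 CPM (median 11.01) with the control vector. Its ranges touched within a narrow band in OTC and overlapped in WT, and it rose by 0.84 ± 0.13 in OTC and 0.66 ± 0.12 in WT on the log2 scale (edgeR adjusted p = 5.81e-07 and 2.23e-05).

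The other general genes that rose were Lgals3 (galectin-3), Ctss (cathepsin S), Lyz2 (lysozyme), Laptm5 (a lysosomal membrane protein of leukocytes), Ptprc (CD45), Aif1, Adgre1 (F4/80), Mpeg1 (perforin-2) and Csf1r. Their log2 fold changes ran from 0.57 ± 0.13 for Csf1r to 1.03 ± 0.20 for Lgals3 in OTC, and from 0.46 ± 0.12 for Csf1r to 1.02 ± 0.19 for Lgals3 in WT. Aif1 was no longer called in OTC without control mice 3 and 67 (log2 fold change 0.49, edgeR adjusted p = 0.0547). Cd163, the scavenger receptor for hemoglobin bound to haptoglobin, was the general gene that did not pass, at -0.03 ± 0.24 in OTC and -0.34 ± 0.24 in WT (edgeR adjusted p = 0.935 and 0.276).

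The C1q chains, which macrophages of the liver secrete and which together form the recognition part of complement C1, rose together in both strains. C1qa lay between 20.9 and 37.3 CPM (median 31.3) in OTC sh-Gls2 livers, against between 15.4 and 25.2 CPM (median 19.8) in OTC control livers, and between 19.7 and 31.2 CPM (median 25.98) in WT sh-Gls2 livers, against between 12.3 and 22.2 CPM (median 15.4) in WT control livers. C1qb lay between 19.7 and 34.7 CPM (median 30.2) in OTC sh-Gls2 livers, against between 13.6 and 21.8 CPM (median 17.02) in OTC control livers, and between 16.3 and 29.1 CPM (median 23.7) in WT sh-Gls2 livers, against between 11.7 and 19.5 CPM (median 14.4) in WT control livers. C1qc lay between 18.3 and 34.5 CPM (median 30.4) in OTC sh-Gls2 livers, against between 14.8 and 25.02 CPM (median 19.3) in OTC control livers, and between 18.5 and 26.4 CPM (median 24.3) in WT sh-Gls2 livers, against between 10.9 and 20.1 CPM (median 14.8) in WT control livers. All of these ranges overlapped between sh-Gls2 and control. Log2 fold changes in OTC were 0.66 ± 0.12 for C1qa, 0.74 ± 0.13 for C1qb and 0.56 ± 0.12 for C1qc, with edgeR adjusted p = 2.97e-05, 4.45e-06 and 0.000237. In WT they were 0.69 ± 0.12 for C1qa, 0.67 ± 0.12 for C1qb and 0.64 ± 0.12 for C1qc, with edgeR adjusted p = 8.55e-06, 1.34e-05 and 2.19e-05. The genes lie side by side on chromosome 4.

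All 4 Fc receptor and adaptor genes rose in both strains. Fcgr1, the high-affinity receptor for IgG, lay between 2.35 and 4.43 CPM (median 2.53) in OTC sh-Gls2 livers, against between 0.2702 and 1.93 CPM (median 1.36) in OTC control livers, without overlap, and between 1.32 and 3.47 CPM (median 2.01) in WT sh-Gls2 livers, against between 0.841 and 2.19 CPM (median 1.19) in WT control livers. Tyrobp (DAP12), the adaptor of Trem2, lay between 6.57 and 9.93 CPM (median 8.63) in OTC sh-Gls2 livers, against between 2.32 and 7.45 CPM (median 5.06) in OTC control livers, and between 5.76 and 8.53 CPM (median 7.24) in WT sh-Gls2 livers, against between 3.5997 and 5.56 CPM (median 4.37) in WT control livers, where the ranges did not overlap. These genes rose by 1.13 ± 0.21 (Fcgr1) and 0.72 ± 0.15 (Tyrobp) in OTC and by 0.73 ± 0.20 and 0.71 ± 0.14 in WT on the log2 scale (edgeR adjusted p = 2.75e-05, 7.90e-05, 0.00392 and 6.24e-05). Fcer1g, the shared signalling chain of Fc receptors, lay between 3.397 and 7.82 CPM (median 5.43) in OTC sh-Gls2 livers, against between 1.89 and 4.22 CPM (median 3.33) in OTC control livers, and between 3.34 and 5.55 CPM (median 4.42) in WT sh-Gls2 livers, against between 2.43 and 4.19 CPM (median 3.06) in WT control livers. Fcgr3, a low-affinity receptor for IgG, lay between 4.19 and 6.59 CPM (median 5.52) in OTC sh-Gls2 livers, against between 3.096 and 4.899 CPM (median 4.33) in OTC control livers, and between 3.46 and 6.12 CPM (median 4.403) in WT sh-Gls2 livers, against between 1.87 and 3.67 CPM (median 2.95) in WT control livers. Both overlapped in both strains. They rose by 0.66 ± 0.15 (Fcer1g) and 0.37 ± 0.14 (Fcgr3) in OTC and by 0.55 ± 0.14 and 0.68 ± 0.13 in WT on the log2 scale (edgeR adjusted p = 0.000364, 0.0226, 0.00195 and 4.79e-05), and the Fcgr3 call in OTC was lost without OTC control mouse 72 (edgeR adjusted p = 0.0568).

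Of the adhesion and chemokine receptor genes, Cx3cr1, the receptor of monocytes and tissue macrophages for fractalkine, lay between 0.914 and 4.06 CPM (median 1.84) in OTC sh-Gls2 livers, against between 0.216 and 2.68 CPM (median 0.711) in OTC control livers. In WT livers the values lay between 0.9797 and 3.52 CPM (median 1.26) with sh-Gls2, against between 0.262 and 1.301 CPM (median 0.458) with the control vector. It passed the test in WT, at 1.37 ± 0.38 (edgeR adjusted p = 0.00317), and not in OTC, at 0.81 ± 0.37 (edgeR adjusted p = 0.0709), where it passed when any 1 of 4 single libraries was left out. Itgam (CD11b), an integrin chain of neutrophils and monocytes, lay between 0.714 and 1.51 CPM (median 1.17) in OTC sh-Gls2 livers, against between 0.825 and 2.28 CPM (median 1.14) in OTC control livers, and between 0.565 and 2.08 CPM (median 1.03) in WT sh-Gls2 livers, against between 0.515 and 1.503 CPM (median 0.844) in WT control livers. Its log2 fold change was -0.15 ± 0.23 in OTC and 0.24 ± 0.22 in WT (edgeR adjusted p = 0.63 and 0.42), and all ranges of both genes overlapped.

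No macrophage gene passed a test of whether the sh-Gls2 effect differed between the strains (0 of 35, edgeR), where 0.12% of all genes were higher and 0.218% lower in the effect in OTC minus that in WT. At an unadjusted p below 0.05 there was 1 gene, Gpnmb, which rested on the few livers given above, and DESeq2 called 0. The 4 genes called in 1 strain alone gave differences of 0.25 ± 0.26 (Timd4), 0.15 ± 0.60 (Ly6c2), -0.57 ± 0.53 (Cx3cr1) and -2.95 ± 1.01 (Gpnmb) on the log2 scale, with edgeR adjusted p = 0.785, 0.956, 0.735 and 0.185. For 27 of the 35 genes the 95% interval of the difference between strains lay within 1 on either side of 0, and for 12 within 0.5.

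With the Glud1 hairpin, 0 of the 35 genes passed the test in either strain, against the same control livers as above. Over all genes, 0% were higher and 0.015% lower in OTC, and 0% higher and 0.0225% lower in WT. At an unadjusted p below 0.05, edgeR gave 1 gene in OTC (Gpnmb, at -1.86 ± 0.72, and at 0.05 without OTC control mouse 38) and 2 in WT (Ctss at 0.33 ± 0.15 and C1qa at 0.27 ± 0.12), and DESeq2 called 0 in both. The median log2 fold change of the 35 genes was 0.02 in OTC and 0.17 in WT, where the medians over all genes were -0.002 and -0.005. Without OTC control mice 3 and 67 the median of the 35 genes in OTC was -0.11, and leaving out single libraries gave -0.07 to 0.12 in OTC and 0.11 to 0.24 in WT. The resident markers had a median of 0.04 in OTC, which was -0.12 without OTC control mice 3 and 67 and between -0.06 and 0.15 with single libraries left out. In WT it was 0.21, and between 0.17 and 0.28 with single libraries left out. The recruited markers had medians of -0.14 in OTC and -0.0015 in WT, and single omissions moved these between -0.24 and 0.01 and between -0.10 and 0.13.

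Among single markers under sh-Glud1, Clec4f lay between 20.1 and 52.98 CPM (median 41.8) in OTC and between 27.1 and 54.8 CPM (median 44.8) in WT, at log2 fold changes of 0.02 ± 0.13 and 0.20 ± 0.12 against control. Cd68 lay between 4.34 and 8.54 CPM (median 7.16) in OTC and between 3.24 and 7.31 CPM (median 5.24) in WT, at 0.26 ± 0.14 and 0.15 ± 0.13. Trem2 lay between 0.0491 and 0.938 CPM (median 0.373) in OTC and between 0 and 0.269 CPM (median 0.125) in WT, at 0.37 ± 0.47 and -0.10 ± 0.60. All of these ranges overlapped those of the control livers. The 95% interval of the log2 fold change lay within 0.5 on either side of 0 for 19 of the 35 genes in OTC and 14 in WT, and within 1 for 29 and 30, so differences of that size were outside the interval for those genes. The difference between strains in the sh-Glud1 effect passed the test for 0 genes by edgeR, where 0% of all genes were called in either direction. DESeq2 called 0, and 1 gene had an unadjusted edgeR p below 0.05, which was Itgax at -1.01 ± 0.49 for OTC minus WT.

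Set directly against sh-Glud1, sh-Gls2 livers had higher levels of 29 of the 35 genes in OTC, with 19.5% of all genes higher and 21.1% lower, and of 25 in WT, with 15.5% higher and 14.2% lower. None was lower. The median log2 difference was 0.71 in OTC and 0.50 in WT. These comparisons share the sh-Gls2 livers with those against the control vector and are not separate evidence. In OTC the largest differences were those of Itgax (1.74 ± 0.32), Gpnmb (1.69 ± 0.69), Trem2 (1.48 ± 0.39), Cd14 (1.45 ± 0.27) and Cybb (1.24 ± 0.16). The others that were higher in OTC were Cx3cr1, Ly6c2, Lgals3, Ctss, Fcgr1, Cd68, Cd5l, Lyz2, Axl, Ccr2, Ptprc, Laptm5, Adgre1, Tyrobp, Vsig4, C1qa, Aif1, C1qb, C1qc, Csf1r, Clec4f, Fcer1g, Fcgr3 and Cd9, from 0.36 ± 0.14 for Cd9 to 1.08 ± 0.38 for Cx3cr1. In WT the largest were those of Gpnmb (3.11 ± 0.90), Trem2 (2.02 ± 0.52), Cd14 (1.84 ± 0.28), Cx3cr1 (1.42 ± 0.40) and Cybb (1.13 ± 0.16). The WT value of Gpnmb rested on the few high sh-Gls2 livers given above. The others that were higher in WT were Itgax, Ccr2, Cd68, Fcgr1, Lgals3, Itgam, Lyz2, Cd5l, Laptm5, Ctss, Axl, Ptprc, Fcgr3, C1qb, Tyrobp, Vsig4, Fcer1g, Adgre1, C1qa and C1qc, from 0.40 ± 0.12 for C1qc to 0.88 ± 0.30 for Itgax. Clec4f did not pass in WT, at 0.27 ± 0.12 (edgeR adjusted p = 0.0897). Calls lost when 1 library was left out were those of Cd9, Gpnmb and Ly6c2 in OTC and of Adgre1, Ptprc, Itgam and Itgax in WT.

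Under the control vector, OTC livers differed from WT livers in 7 of the 35 genes, all higher in OTC, with a background of 19.9% of all genes higher and 16.4% lower. The share of 7 in 35 was near that background. These were Cd9, Gpnmb, Fcgr3, Ctss, Lgals3, C1qc and C1qa. Cd9 lay between 14.2 and 39.3 CPM (median 18.5) in OTC control livers, against between 8.08 and 15.9 CPM (median 12.01) in WT control livers, at a log2 fold change of 0.81 ± 0.14 (edgeR adjusted p = 1.51e-05). The highest OTC control liver for Cd9 was mouse 3, and the call was kept without it. Fcgr3 lay between 3.096 and 4.899 CPM (median 4.33) in OTC control livers, against between 1.87 and 3.67 CPM (median 2.95) in WT control livers, at 0.54 ± 0.14 (edgeR adjusted p = 0.00188). The ranges of all 7 genes overlapped between the strains. Gpnmb was higher by 3.35 ± 0.81 (edgeR adjusted p = 0.000445), and by 1.43 with edgeR adjusted p = 0.107 without OTC control mouse 38. Lgals3 was higher by 0.66 ± 0.21, Ctss by 0.49 ± 0.15, C1qc by 0.38 ± 0.12 and C1qa by 0.32 ± 0.13 (edgeR adjusted p = 0.00983, 0.00859, 0.0122 and 0.0414), and the C1qa call was lost when any 1 of 12 single libraries was left out.

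Of the resident markers, none passed between the strains: Clec4f was at 0.07 ± 0.13, Vsig4 at 0.27 ± 0.12, Cd5l at 0.22 ± 0.17, Timd4 at -0.02 ± 0.19, Marco at 0.70 ± 0.40 and Folr2 at -0.54 ± 0.61. The 95% interval for Clec4f ran from -0.18 to 0.32. Marco rested on WT control mouse 7, without which it was at 1.30 (edgeR adjusted p = 0.00404). The median of the 6 resident markers was 0.14, and it was 0.26 without OTC control mice 3 and 67 and between 0.04 (without OTC control mouse 46) and 0.23 (without OTC control mouse 3) with single libraries left out. That of the recruited markers was 0.69, and 0.18 on log2(TPM + 1) without a filter, and that of all genes was 0.02. Without OTC control mice 3 and 67, 10 of the 35 genes were called, Axl, Cd5l, Cx3cr1 and Vsig4 entering and C1qa leaving. Of all 13396 genes tested in that run, 3862 were called in either direction.

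Other myeloid genes, from lists written with earlier results known, are given for the sh-Gls2 comparisons, where 20.2% of all tested genes were higher and 22.6% lower in OTC, and 17.6% higher and 17.2% lower in WT. Of 11 tested genes that signal below Fc receptors, Trem2 and related receptors, 10 rose in OTC and 9 in WT. Sirpa, the phagocyte receptor for CD47, rose by 1.15 ± 0.14 in OTC and 0.89 ± 0.14 in WT, and Plcg2, a phospholipase downstream of Tyrobp, by 0.97 ± 0.20 and 0.75 ± 0.19. The kinase Syk rose by 0.79 ± 0.17 in OTC and 0.44 ± 0.16 in WT, Inpp5d by 0.65 ± 0.14 and 0.48 ± 0.13, Vav1 by 0.62 ± 0.14 and 0.70 ± 0.14, and Lyn by 0.21 ± 0.06 and 0.24 ± 0.06. Of 10 growth factor and chemokine genes, 7 rose in OTC and 6 in WT. Ccl2, which draws Ccr2-bearing monocytes, lay between 1.404 and 4.12 CPM (median 2.39) in OTC sh-Gls2 livers, against between 0 and 0.852 CPM (median 0.259) in OTC control livers, without overlap, and between 0.471 and 2.83 CPM (median 1.599) in WT sh-Gls2 livers, against between 0.0515 and 0.689 CPM (median 0.314) in WT control livers. It rose by 2.81 ± 0.38 in OTC and 2.51 ± 0.37 in WT (edgeR adjusted p = 1.83e-08 and 1.16e-07). Csf1, the ligand of Csf1r, rose by 0.50 ± 0.11 in OTC and 0.38 ± 0.10 in WT, Csf2rb by 1.11 ± 0.24 and 1.05 ± 0.22, Ccl6 by 0.92 ± 0.22 and 0.56 ± 0.21, and Ccl9 by 0.36 ± 0.14 and 0.46 ± 0.13.

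Of 15 genes of lipid handling and lysosomes in macrophages, many of which hepatocytes also express, 8 rose and 1 fell in OTC, and 9 rose and 2 fell in WT. Ctsd, a lysosomal protease, rose by 0.67 ± 0.06 in OTC and 0.83 ± 0.06 in WT, and Mmp12, the macrophage elastase, by 2.63 ± 0.41 and 3.25 ± 0.49. The sterol exporter Abcg1 rose by 0.98 ± 0.13 in OTC and 0.89 ± 0.13 in WT, and the fatty acid receptor Cd36 by 2.41 ± 0.38 and 1.27 ± 0.36. Lipa, lysosomal acid lipase, fell by 0.46 ± 0.11 in OTC and 0.54 ± 0.10 in WT. Of 11 further Kupffer cell genes, 5 rose and 1 fell in OTC, and 4 rose and 1 fell in WT. Siglec1 (CD169) rose by 1.16 ± 0.19 in OTC and 0.96 ± 0.18 in WT, Hmox1, the heme-degrading enzyme, by 0.51 ± 0.14 and 0.67 ± 0.13, and Il18bp by 0.88 ± 0.14 and 0.46 ± 0.14. Nr1h3, which encodes liver X receptor alpha and is also expressed in hepatocytes, fell by 0.30 ± 0.04 in OTC and 0.14 ± 0.04 in WT.

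Of 9 transcription factor genes of the lineage, 4 rose in OTC and 3 in WT, beside 20.2% and 17.6% of all tested genes, and with so few genes a count of 3 is not far from that share. Spi1, which encodes PU.1, rose by 0.93 ± 0.17 in OTC and 0.84 ± 0.17 in WT, and Runx1 by 0.73 ± 0.29 and 1.04 ± 0.30. Zeb2 rose in OTC by 0.60 ± 0.11 and was at 0.22 ± 0.10 in WT, where it did not pass. Irf8 rose by 0.38 ± 0.15 in OTC and was at 0.31 ± 0.15 in WT, and Klf4 rose by 0.54 ± 0.20 in WT and was at 0.09 ± 0.19 in OTC. Of 10 cytokine genes and related enzymes, 4 passed the filter on low counts. Tgfb1 rose by 0.46 ± 0.12 in OTC and 0.31 ± 0.11 in WT, Il1rn rose by 0.94 ± 0.31 in OTC, and Il1b and Il18 did not pass in either strain. Tnf, Il6, Il10, Il12b, Nos2 and Osm were too low to test at this depth. Under sh-Glud1, none of the genes on these lists passed the test in either strain (edgeR).

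Markers of other cells were set beside the macrophage genes. Of all tested genes, 20.2% were higher and 22.6% lower with sh-Gls2 in OTC, and 17.6% were higher and 17.2% lower in WT. Under sh-Gls2, 0 of the tested markers of T cells (5), B cells (4), NK cells (1), neutrophils (2), dendritic cells (2) and erythroid cells (3) passed in either strain (edgeR). With so few genes this does not show that their levels were unchanged. Their median log2 fold changes in OTC and WT were 0.44 and 0.42 (T cells), 0.41 and 0.10 (B cells) and 0.63 and 0.94 (NK cells). They were 0.37 and 0.18 (neutrophils), 0.04 and 0.21 (dendritic cells) and -0.30 and -0.36 (erythroid cells). All 4 genes of dividing cells rose in both strains, with Mki67 between 1.45 and 15.6 CPM (median 5.302) in OTC sh-Gls2 livers, against between 0.324 and 1.097 CPM (median 0.6098) in OTC control livers, and between 3.58 and 25.3 CPM (median 7.68) in WT sh-Gls2 livers, against between 0.613 and 2.69 CPM (median 2.04) in WT control livers. Mki67 rose by 3.27 ± 0.41 in OTC and 2.38 ± 0.33 in WT on the log2 scale, Top2a by 2.99 ± 0.46 and 2.28 ± 0.37, Cdk1 by 1.87 ± 0.36 and 1.99 ± 0.33, and Ccnb1 by 4.63 ± 0.84 and 2.76 ± 0.48. The data do not say which cells divided.

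Stellate cell markers also moved with the macrophage genes, 4 of 6 higher in OTC (Reln, Lrat, Dcn and Pdgfrb) and 3 of 6 in WT (Reln, Dcn and Lrat). Beside these stood 20.2% of all tested genes higher and 22.6% lower in OTC, and 17.6% and 17.2% in WT. The stellate markers summed to between 299.6 and 413 CPM (median 364) in OTC sh-Gls2 livers, against between 208 and 272 CPM (median 259) in OTC control livers, and between 227 and 386 CPM (median 342) in WT sh-Gls2 livers, against between 211 and 275 CPM (median 225) in WT control livers. Endothelial markers were higher for 4 of 6 in OTC (Pecam1, Stab2, Kdr and Clec4g) and 0 of 6 in WT, and summed to between 179 and 254 CPM (median 204) in OTC sh-Gls2 livers, against between 144 and 201 CPM (median 163) in OTC control livers. In WT the endothelial sums lay between 170.3 and 220.5 CPM (median 196) with sh-Gls2, against between 139.9 and 226.5 CPM (median 172.8) with the control vector. Hepatocyte markers were lower for 4 of 6 in OTC (Apoa1, Cps1, Serpina1c and Tat) and for 0 in WT, and 1 of 4 bile duct markers, Epcam, was higher in WT. With so few genes, 1 of 4 is not far from the share of all genes. The part of these other cell types in the result was not tested. Under the control vector, where 19.9% of all tested genes were higher and 16.4% lower in OTC than in WT, 3 of 4 genes of dividing cells were lower and 0 higher. Of the genes of lipid handling and lysosomes, 5 of 15 were higher (Abcg1, Ctsl, Mmp12, Lpl and Cd63) and 1 lower (Abca1). Hepatocyte markers were higher for 3 and lower for 1 of 6, stellate markers higher for 1 and lower for 2 of 6, and further Kupffer cell genes higher for 2 and lower for 2 of 11. Growth factor and chemokine genes were higher for 2 of 10, lineage transcription factors higher for 1 and lower for 1 of 9, and signalling genes higher for 1 of 11. In the same comparison 1 of 4 bile duct and 1 of 2 dendritic markers were higher, 1 of 6 endothelial and 1 of 3 erythroid markers were lower, and 0 of the T cell, B cell, NK cell, neutrophil and cytokine genes passed the test (edgeR).

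**Figure D5:**
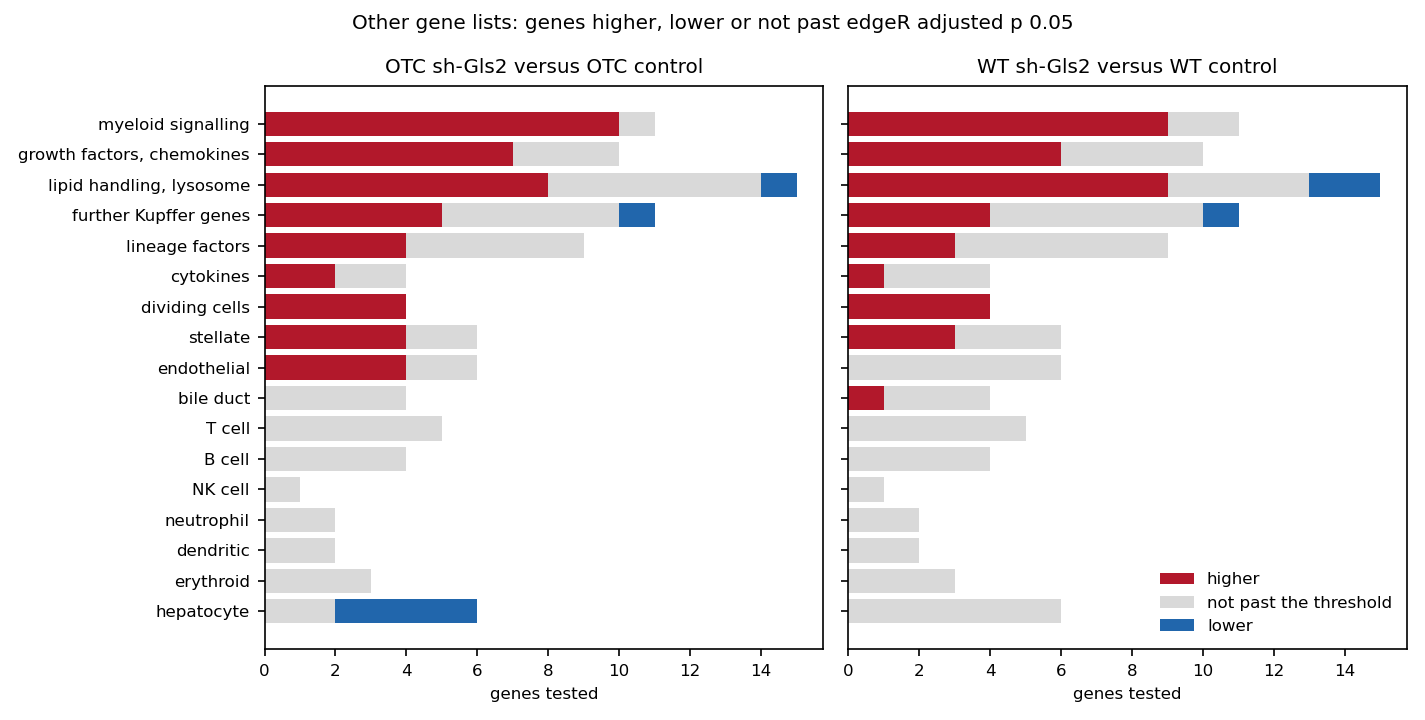
Number of tested genes (x axis, from 0) on each other list (y axis) that were higher, not past the threshold or lower with sh-Gls2 against the control vector, OTC on the left and WT on the right. Of all tested genes, 20.2% were higher in OTC and 17.6% in WT. The myeloid signalling list has 10 and 9 of 11 genes higher, while T cell, B cell, NK cell, neutrophil, dendritic and erythroid markers have none past the threshold in either strain. Few markers of each of those cells were tested, so this does not show that their levels were unchanged.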

How the data were processed

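Poly(A)-selected, strand-specific RNA libraries of whole liver were sequenced from 55 mice, amplified with 12 PCR cycles, per the labels' protocols. The authors deposited raw read counts per gene symbol and TPM values for each library. Per the submitters' processing notes, CASAVA 1.8.2, FastQC and the build GRCm38 were used. The aligner, counting program and annotation are not given in the sources used here. One OTC control column carries a mouse number that differs from the sample titles, so it was placed by strain and vector alone and is called the unnumbered OTC control.

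Counts were tested with edgeR 4.0.16 (R 4.3.3) by the quasi-likelihood F test, two-sided, over all 55 libraries with 1 term per group, TMM factors and filterByExpr (minimum count 10, minimum total 15), which kept 13311 genes. P-values were adjusted by Benjamini-Hochberg over these genes, with a threshold of 0.05. Standard errors (SE) of log2 fold changes were computed from the fitted means, dispersions and quasi-dispersion, and 95% intervals span 1.96 SE on either side. Levels are TMM-normalized CPM computed from the counts. TPM was used only to compare levels between genes and, with limma 3.58.1, as an alternative, and DESeq2 1.42.0 was a further alternative. The edgeR filter and test were tried on simulated counts for WT sh-Gls2 against WT control only. The other comparisons, limma and DESeq2 were not simulated.

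Every library pair within a group differed by more than sampling noise (227 pairs, lowest chi-square per degree of freedom 10.5). Totals of 14489866 to 22781052 counts set the precision, and PCR reads without molecular identifiers are not independent molecules. The labels name no sequencing batch. The 35 genes, the other lists, the tests and the alternatives were chosen with earlier results of these data known. Values are given in full for the resident and recruited markers and, of the other listed genes, for up to 4 per role with the smallest adjusted p under sh-Gls2. On other lists, up to 4 called genes with the smallest adjusted p per comparison were named. Gene positions came from GENCODE M21 and promoter windows from RefSeq (GRCm38.p6), which held 30 of the 35 genes.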

Additional observations from a re-analysis of the deposited data

Results flagged for a closer look

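Single livers stood apart from their group in 21 of 210 combinations of a listed gene and a group, 17 as the highest and 4 as the lowest value, by the gap to the next liver set against the range of the group (Dixon's criterion). Chance alone gives about 1 in 20 such groups, and genes of the same cells share livers, so these are not separate events.

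WT control mouse 7 was the highest of its group for 6 genes. It had 13.1 CPM of Marco, 3.26 CPM of Cd14, 29.99 CPM of Lyz2, 159.6 CPM of Mpeg1, 11.8 CPM of Ptprc and 20.35 CPM of Axl. OTC sh-Glud1 mouse 58 was the lowest of its group for 4 genes, with 20.1 CPM of Clec4f, 16.3 CPM of Cd5l, 2.76 CPM of Adgre1 and 25.1 CPM of Mpeg1.

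Gpnmb stood out in 3 groups, at 16.2 CPM in OTC control mouse 38, 0.781 CPM in WT sh-Glud1 mouse 70 and 0.785 CPM in WT control mouse 13. Among the other livers, Marco was highest in WT sh-Glud1 mouse 57 at 7.26 CPM, Folr2 in OTC control mouse 35 at 4.62 CPM and Ccr2 in OTC control mouse 46 at 3.01 CPM. Itgax was highest in WT sh-Gls2 mouse 30 at 2.35 CPM, Trem2 in WT sh-Gls2 mouse 36 at 1.51 CPM and Cd9 in OTC control mouse 3 at 39.3 CPM. Fcgr1 was highest in OTC sh-Gls2 mouse 21 at 4.425 CPM and Fcgr3 in OTC sh-Glud1 mouse 65 at 5.65 CPM. Of the listed genes, 0 passed the test of a difference between strains in either hairpin's effect.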

How the results depend on the processing

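The number of listed genes called stayed within 1.5 times of the reported number when DESeq2 size factors replaced TMM, with the low-count filter dropped or set to 1 CPM in 8 libraries, by DESeq2's own test, when only the compared groups were fitted, by limma on TPM, and when WT control mouse 13, OTC control mice 3 and 67, or all of these were removed. It ran from 24 to 29 for sh-Gls2 in OTC, 22 to 28 for sh-Gls2 in WT and 6 to 10 for OTC control against WT control, and was 0 under each for sh-Glud1. With single libraries left out it ran from 26 to 29, 28 to 29 and 5 to 10. Some runs tested fewer than 35 listed genes. Limma on TPM with the filter tested 29, the filter of 1 CPM left 34, and fits of only the compared groups tested 31 to 35. Of the 28 genes called for sh-Gls2, 24 in OTC and 23 in WT had a value under every alternative, and 21 and 22 of these kept their call throughout. The others (Ccr2, Itgax, Ly6c2 and Trem2 in OTC, and Ccr2, Cx3cr1, Gpnmb, Itgax and Trem2 in WT) lacked a value under at least 1, and 3 of 4 and 4 of 5 kept their call in the alternatives that tested them. Gpnmb in OTC sh-Gls2 against control was at -0.17 and turned to 1.75 without OTC control mouse 38, the highest liver, and single omissions gave -0.36 to 1.75. The recruited-marker median, a log2 value, was smaller on TPM. With log2(TPM + 1) it was 0.372 for sh-Gls2 in OTC, 0.387 in WT and 0.467 for OTC sh-Gls2 against sh-Glud1. With log2(TPM + 0.1) these were 0.591, 0.682 and 0.789, with 2 of the 6 markers past the TPM filter. Without that filter and with log2(TPM + 1) they were 0.452, 0.476 and 0.546, and 0.182 for OTC control against WT control. The resident medians were 0.688, 0.471 and 0.528 with log2(TPM + 1), with or without the filter, and 0.836, 0.508 and 0.738 with log2(TPM + 0.1), so the recruited median was then below the resident one in OTC sh-Gls2 against control under each, in WT with the filtered log2(TPM + 1), and in OTC sh-Gls2 against sh-Glud1 with the filtered log2(TPM + 1). A pseudocount pulls folds of low genes toward 0, and the filtered recruited medians rest on Cd9 and Ly6c2 alone. No paired analysis was possible because mouse numbers are not shared between groups. Markers under 1 TPM rest on few reads per liver, which limits Ly6c2, Trem2, Itgax, Ccr2 and Gpnmb.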
